A study of Rattus norvegicus with 18 samples.

Results

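Collagen genes were followed through RNA-seq of cultured rat bone marrow MSCs (mesenchymal stem cells). Collagen genes were taken as every row of the deposited tables whose gene name has the form Col, a number, a and a number, such as Col1a1, and 42 of 32623 rows met this rule. The study compared MSCs from miR-337-/- rats (KO) and from wild type rats (WT), all of SD background and 2-month-old, under 10% cyclic mechanical stretch (CMS), fetal bovine serum (FBS) or serum starvation (SSt), to ask how stretch and serum act on quiescent MSCs and whether this needs miR-337. The 6 groups were KO CMS, KO FBS, KO SSt, WT CMS, WT FBS and WT SSt, with 3 libraries in each. All groups shared the culture to passage 3 and 8 h without serum, after which CMS or FBS lasted 24 h by the sample labels and 16 h by the study's methods, and the plates were coated with type I collagen. Neither the labels nor the methods state that the 3 libraries of 1 group are separate rats or cultures, so p-values measure only the spread between these samples, which may be technical. KO and WT libraries were deposited in separate tables, and neither the labels nor the methods say whether they were cultured or sequenced together, so genotype and any such difference cannot be told apart. The Mir337 row held no count in any of the 18 libraries, so the deletion could not be checked here.

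Collagens are proteins of 3 chains wound into a triple helix. Fibrillar collagens (types I, II, III, V, XI, XXIV and XXVII) form the fibrils that carry tension, and type I with its chains Col1a1 and Col1a2 is the main protein of bone. Type IV forms the sheet of basement membranes, type VI a beaded filament network around cells, and the FACIT collagens (fibril-associated, with interrupted helices) sit on the surface of fibrils. The remaining classes include the multiplexins XV and XVIII of basement membranes, the short-chain networks VIII and X, the transmembrane collagens XIII, XVII, XXIII and XXV, and type VII, which makes the anchoring fibrils under epithelia. Chains of a trimer are made together in the endoplasmic reticulum, hydroxylated there, secreted, trimmed and cross-linked by lysyl oxidases.

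The mature strands of the microRNA that the KO rats lack are shown because the genotypes differ by it, with the seed, bases 2 to 8, in capitals (RefSeq, GRCr8, chr6:134321201-134321223 for the 3p strand and chr6:134321170-134321190 for the 5p strand, both on the plus strand).
rno-miR-337-3p: uUCAGCUCcuauaugaugccuuu
rno-miR-337-5p: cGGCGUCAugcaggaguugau

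Of the 42 collagen genes, 33 matched a promoter window of RefSeq (GRCr8, 250 bases before to 50 after a gene start), and 6 stretches before gene starts are shown for the members whose values the account turns on. Capitals mark a TEAD motif (GGAATG), an AP-1 motif (TGANTCA) or a GC box (GGGCGG), each searched on both strands. None of the letters of these motifs overlap in the stretches shown. The gene starts of Col4a1 and Col4a2 lie head to head, 76 bases apart, and the first line is the whole stretch between them (chr16:84885521-84885596, plus strand, the direction of Col4a1). The others are the 100 bases before the gene start of Col18a1 (chr20:11473545-11473644), Col6a1 (chr20:11905590-11905689), Col27a1 (chr5:81662808-81662907), Col7a1 (chr8:118483264-118483363) and Col8a1 (chr11:56246682-56246781), all on the plus strand.
Col4a1 and Col4a2: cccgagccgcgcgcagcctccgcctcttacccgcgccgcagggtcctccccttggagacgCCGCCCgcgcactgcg
Col18a1: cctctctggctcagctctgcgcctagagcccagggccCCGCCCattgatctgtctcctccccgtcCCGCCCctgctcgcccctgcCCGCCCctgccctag
Col6a1: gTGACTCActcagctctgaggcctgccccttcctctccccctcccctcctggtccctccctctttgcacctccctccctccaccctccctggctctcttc
Col27a1: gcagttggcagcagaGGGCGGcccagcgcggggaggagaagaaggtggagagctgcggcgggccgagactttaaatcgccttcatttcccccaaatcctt
Col7a1: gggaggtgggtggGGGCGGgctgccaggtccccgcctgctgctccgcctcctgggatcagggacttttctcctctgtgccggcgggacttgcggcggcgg
Col8a1: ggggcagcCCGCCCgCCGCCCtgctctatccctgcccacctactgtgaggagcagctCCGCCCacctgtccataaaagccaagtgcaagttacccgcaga

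A GC box stood in the windows of 19 of the 33 collagen genes and in 33.1% of all 33469 windows. The TEAD motif stood in 5 of 33, against 14.2% of all windows, and the AP-1 motif in Col6a1 alone, against 7.33% of all windows. In these stretches Col18a1, which rose under CMS and FBS, and Col8a1, which fell, each held 3 GC boxes. A match is a description of the letters and not a site. The promoters of Col1a1, Col3a1, Col2a1, Col6a2, Col14a1 and Col12a1 are not shown.

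Depth was 56083000 to 71847969 counts per library. FPKM values are counts scaled by transcript length and by the library total. Tests used edgeR on the counts of genes that reached an FPKM of 1 in 3 or more of the 9 WT or 9 KO libraries, and a gene passed at a Benjamini-Hochberg adjusted p under 0.05 over all genes of the fit, whatever its fold. The label MSC was checked against marker lists. Of the 12 genes on the MSC and stroma list, Thy1, Cd44 and Itgb1 were high, with means of 153 to 672 FPKM over the groups. Lepr, the leptin receptor by which the study defines these cells, stayed at or under 0.0242 FPKM in every group mean. The study reports nearly all of its cultured MSCs as LepR-positive by flow cytometry, at a later passage. That assay stains protein, whereas the values here are mRNA. The levels of the other genes on this list are not given here. Macrophage and blood markers were also high, and their summed FPKM ran over 4063 to 4387 in KO CMS, 4046 to 5000.1 in KO FBS and 2261 to 2371 in KO SSt, against 6049 to 6374 in WT CMS, 6305 to 6656 in WT FBS and 3681 to 3835 in WT SSt. The macrophage lysozyme Lyz2 made up most of this sum, the leukocyte gene Ptprc was at 17.3 to 49.6 FPKM in the group means, and 1 defining marker of the 14, Cd163, was at or near 0. A lower value in such bulk samples can come from fewer cells of a type or from less RNA per cell, which cannot be told apart, and the part of these cells in the collagen values was not tested.

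Library KO FBS replicate 1 stood apart. The spread of its counts from KO FBS replicates 2 and 3 was 131 and 167 times that of sampling noise (chi-square per degree of freedom), against 31.2 between those 2. KO CMS replicate 1 came next, at 63.3 and 77.2 against 27.7. Collagen counts were 1.97% of all counts in KO FBS replicate 1 and 3.00% in KO FBS replicate 3, the lowest and the highest of the KO libraries, and the calls that changed without KO FBS replicate 1 or KO CMS replicate 1 are given with the comparisons below.

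Collagen mRNA was abundant and its total differed by group. The share of all counts that fell on the 42 genes was 2.26 ± 0.33% in KO CMS, 2.51 ± 0.51% in KO FBS and 2.48 ± 0.09% in KO SSt, against 2.31 ± 0.02% in WT CMS, 2.53 ± 0.09% in WT FBS and 1.51 ± 0.02% in WT SSt (SD, n = 3 each). WT SSt thus stood below every other group, and its highest library, at 1.54%, was below the lowest library of any other group, at 1.97%. Their summed FPKM showed the same order, with 4388 to 4733 in KO SSt against 2697 to 2760 in WT SSt. Fibrillar genes held most of the sum, 78.6% to 82.7% in KO libraries and 61.4% to 75.4% in WT libraries. Within WT, that fibrillar share was 74.4% to 75.4% under CMS or FBS and 61.4% to 62.6% under SSt. These sums rest on 42 genes of unlike level and are given without a test. They leave out the alpha 2 chain of type I, whose rows fall outside the name rule.

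**Figure D1:**
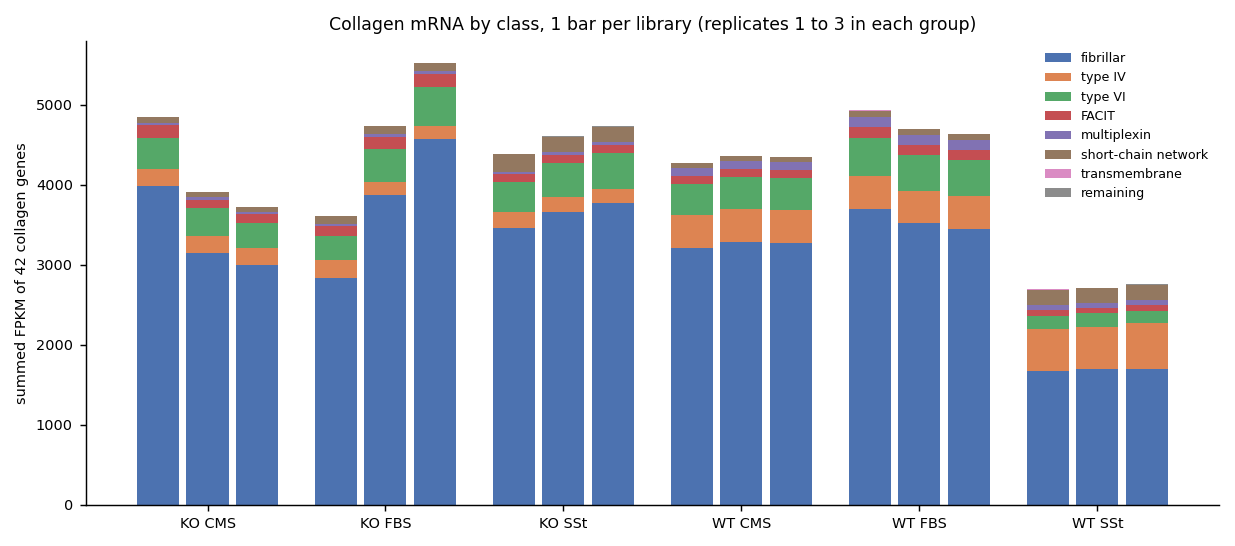
Summed FPKM (y axis) of the 42 collagen genes in each of the 18 libraries (x axis, replicates 1 to 3 within each group), stacked by collagen class. The 3 WT SSt bars end between 2697 and 2760, below every other bar, and the KO FBS bars spread from 3613 to 5524.

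The order of the genes by level was led by the same few chains in all groups. Col1a1 and Col3a1, the chains of the main fibrils of bone and of distensible tissue, had the highest levels in every group and held 68.3% of collagen FPKM in KO CMS, 68.7% in KO FBS and 60.7% in KO SSt, against 62.5% in WT CMS, 62.7% in WT FBS and 42.5% in WT SSt. Col5a2, a chain of type V, the collagen that starts fibrils and limits their width, came next among the 42 genes in every group. The alpha 2 chain of type I, whose rows fall outside the name rule, is not in this order. With its rows summed it had group means of 367 to 929 FPKM, above Col5a2 in every group. The order below Col5a2 differed between groups. Col4a1, Col4a2, Col6a1, Col6a2, Col5a1 and Col8a1 had group means of 44.4 to 325 FPKM, and in some groups Col11a1, Col14a1 or Col18a1 stood among them. At the other end, 18 genes never met the level needed for a test. Of these, 3 (Col19a1, Col22a1 and Col26a1) held no count in any library, and the highest value of the other 15 was 0.631 FPKM. The 24 tested genes were 8 of 10 fibrillar, 3 of 6 type IV, 2 of 5 type VI, 4 of 9 FACIT, both multiplexins, 2 of 3 short-chain, 2 of 4 transmembrane and 1 of the 3 remaining genes. Col23a1 did not reach the level needed in the KO table, which leaves 23 there.

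In WT cells, CMS and FBS raised Col1a1, Col3a1, both tested type VI chains, Col14a1 and Col18a1, and lowered Col4a1, Col4a2, Col7a1, Col8a1, Col12a1, Col23a1 and Col27a1. Under CMS, 12 of 24 collagen genes were higher and 7 lower than in SSt, against 34.6% higher and 32.3% lower among all 12916 genes tested. Under FBS, 14 were higher and 7 lower than in SSt, against 33.7% and 32.7% of all genes. With a fold of at least 2 as well, 12 passed under CMS and 11 under FBS, where 16.7% and 16.1% of all genes did. The median log2 fold change of the 24 genes was 0.08 under CMS and 0.19 under FBS, beside 0.02 under CMS and 0.01 under FBS over all genes. Both comparisons use the same 3 SSt libraries and are not independent.

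Col1a1 had 1306, 1327 and 1274 FPKM in WT CMS and 1540.4, 1429.9 and 1403 in WT FBS, against 782, 774 and 789 in WT SSt. The groups did not overlap, and the log2 fold change was 0.71 ± 0.033 under CMS (standard error, adjusted p = 3.67e-08, edgeR) and 0.86 ± 0.033 under FBS (adjusted p = 9.62e-09, edgeR). Col3a1 moved further, with 1362, 1409 and 1432 FPKM in WT CMS and 1570.3, 1514 and 1476 in WT FBS, against 378, 388 and 361 in WT SSt. Its rise was 3.67-fold under CMS (log2 1.87 ± 0.034, adjusted p = 1.04e-10, edgeR) and 3.95-fold under FBS (log2 1.98 ± 0.034, adjusted p = 6.88e-11, edgeR). Col3a1 therefore stood above Col1a1 in WT CMS and WT FBS and below it in WT SSt.

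The other fibrillar chains split. Col2a1, the collagen of cartilage fibrils, was low, at 4.17, 5.43 and 4.41 FPKM in WT CMS and 5.32, 4.93 and 5.94 in WT FBS, against 0.970, 1.05 and 0.915 in WT SSt, and rose 4.68-fold under CMS (log2 2.23 ± 0.116, adjusted p = 8.01e-08, edgeR) and 5.37-fold under FBS (log2 2.43 ± 0.117, adjusted p = 4.61e-08, edgeR). Col5a2 had 327, 335 and 342 FPKM in WT CMS and 349.7, 349 and 342 in WT FBS, against 316, 334 and 342 in WT SSt. WT CMS overlapped with WT SSt, and the lowest WT FBS value, 342.42, lay just above the highest WT SSt value, 342.14. The log2 fold change of Col5a2 was -0.01 ± 0.031 under CMS (adjusted p = 0.813, edgeR) and 0.03 ± 0.031 under FBS (adjusted p = 0.372, edgeR). Its partner Col5a1 had means of 110.4 ± 1.92 FPKM in WT CMS and 113 ± 2.98 in WT FBS, against 112 ± 0.844 in WT SSt (SD, n = 3 each), and passed in neither comparison. The third type V chain, Col5a3, rose by 0.41 under CMS and by 0.72 under FBS on the log2 scale, and Col11a1, of the type XI core of cartilage fibrils, by 0.52 under CMS and by 0.49 under FBS. Col27a1, a fibrillar chain of cartilage, went the other way, with 3.69, 3.19 and 3.68 FPKM in WT CMS and 4.28, 4.25 and 4.94 in WT FBS, against 17.4, 18.5 and 19.0 in WT SSt. That was 5.29-fold lower under CMS (log2 -2.40 ± 0.077, adjusted p = 2.71e-09, edgeR) and 4.18-fold lower under FBS (log2 -2.06 ± 0.076, adjusted p = 7.12e-09, edgeR).

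Both type VI chains that were tested rose. Col6a2 had 195, 205 and 205 FPKM in WT CMS and 242, 231 and 227 in WT FBS, against 98.0, 103 and 90.7 in WT SSt, which was 2.04-fold higher under CMS (log2 1.03 ± 0.047, adjusted p = 3.09e-08, edgeR) and 2.34-fold higher under FBS (log2 1.23 ± 0.047, adjusted p = 9.13e-09, edgeR). Its partner Col6a1 had 184, 188 and 202 FPKM in WT CMS and 229, 217 and 218 in WT FBS, against 68.9, 71.4 and 68.3 in WT SSt, and rose 2.70-fold under CMS and 3.11-fold under FBS. The third chain of the common type VI trimer has a row whose name falls outside the rule and whose description names it (ENSRNOG00000019648), and it was higher by 1.51 ± 0.098 under CMS (adjusted p = 4.13e-07, edgeR) and by 1.66 ± 0.099 under FBS (adjusted p = 2.2e-07, edgeR) on the log2 scale.

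Type IV moved less and in the other direction. Col4a1 had 253, 243 and 245 FPKM in WT CMS and 242, 235 and 239 in WT FBS, against 316, 314 and 345 in WT SSt, a log2 fold change of -0.42 ± 0.036 under CMS (adjusted p = 3.57e-06, edgeR) and of -0.48 ± 0.036 under FBS (adjusted p = 1.31e-06, edgeR). Col4a2, its partner in the common type IV trimer, followed with -0.37 ± 0.039 under CMS (adjusted p = 1.55e-05, edgeR) and -0.35 ± 0.039 under FBS (adjusted p = 2.18e-05, edgeR). Every WT CMS and WT FBS library lay below every WT SSt library for both chains. Col4a5, a chain of the kidney glomerulus and of other basement membranes, was near 1 FPKM in all 3 WT groups and did not pass.

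**Figure D2:**
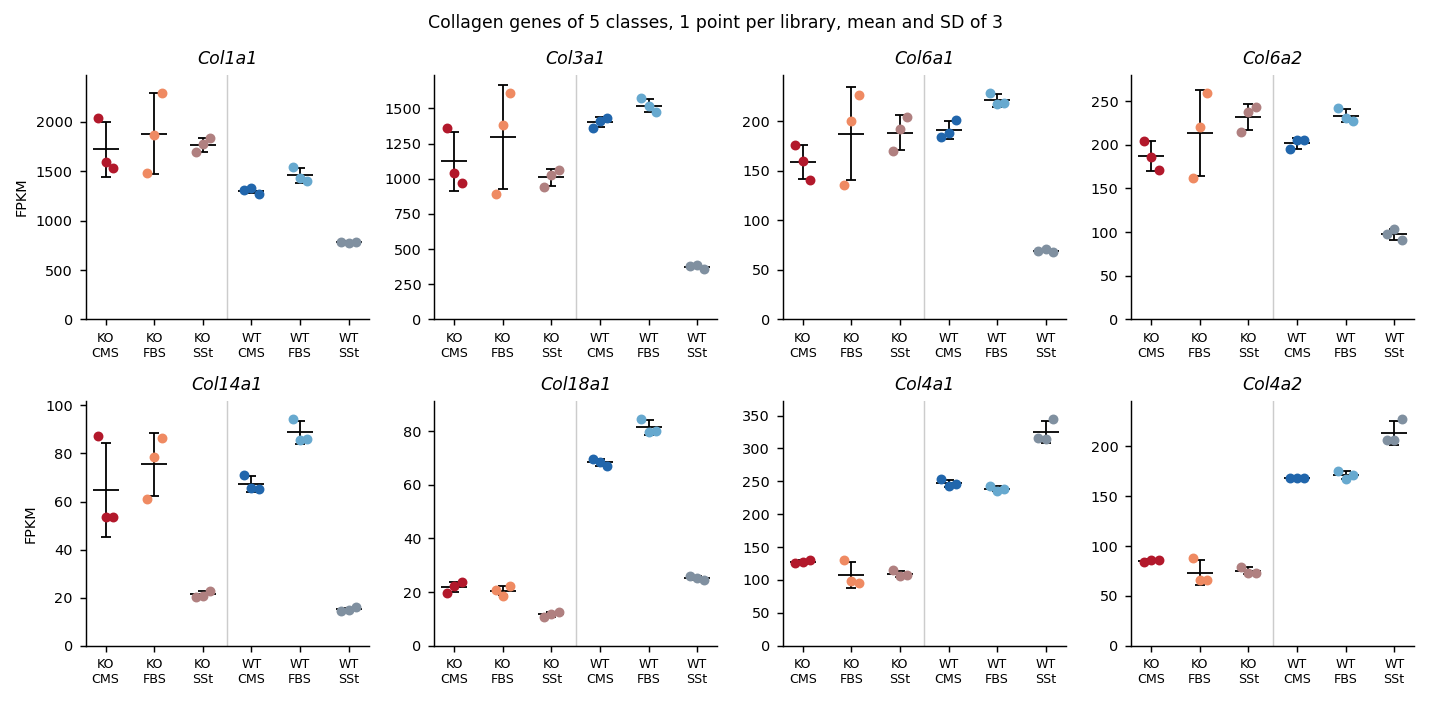
FPKM (y axis, linear from 0) of 8 collagen genes in the 6 groups (x axis), with 1 point per library and the mean and SD of 3 libraries in black. Col3a1, Col6a1 and Col6a2 are lower in WT SSt than in every other group, while the 9 KO points of Col4a1, at 94.9 to 131 FPKM, all lie below the 9 WT points, at 235 to 345 FPKM.

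Among FACIT collagens the largest WT change was that of Col14a1, a chain on the surface of type I fibrils in dense connective tissue. It had 71.0, 65.4 and 65.4 FPKM in WT CMS and 94.4, 85.8 and 86.1 in WT FBS, against 14.6, 14.8 and 15.9 in WT SSt, which was 4.38-fold higher under CMS (log2 2.13 ± 0.055, adjusted p = 6.2e-10, edgeR) and 5.74-fold higher under FBS (log2 2.52 ± 0.055, adjusted p = 2.83e-10, edgeR). Col12a1, of the same family and also bound to type I fibrils, fell to 16.8, 15.7 and 15.5 FPKM in WT CMS and 22.4, 22.4 and 23.7 in WT FBS, against 38.5, 38.2 and 43.2 in WT SSt. Col9a1, the cartilage FACIT that coats type II fibrils, rose 2.0-fold under CMS and 2.03-fold under FBS over a low level, 0.890 FPKM in WT SSt. Col16a1 rose by 0.10 under CMS and by 0.18 under FBS on the log2 scale, and its call under CMS was lost in 3 of the fits that left out a library, WT CMS replicate 1, WT SSt replicate 1 or WT SSt replicate 2, at adjusted p up to 0.0849 (edgeR).

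The multiplexin Col18a1, whose cleaved end is endostatin, rose 2.66-fold under CMS and 3.15-fold under FBS, to 68.3 ± 1.33 FPKM in WT CMS and 81.4 ± 2.75 in WT FBS, against 25.2 ± 0.623 in WT SSt (SD, n = 3 each). Its relative Col15a1 rose by 0.20 under FBS, a call lost without WT FBS replicate 1 or 3 or WT SSt replicate 2 or 3 at adjusted p up to 0.0828 (edgeR), and without WT SSt replicate 2 it was lower under CMS (log2 -0.18, adjusted p = 0.0441, edgeR). A second row, described as a type XV-like chain (ENSRNOG00000039197), went otherwise in WT. Its log2 fold change was 0.24 under CMS (adjusted p = 0.0175, edgeR), -0.03 under FBS (adjusted p = 0.751) and 0.27 for CMS over FBS (adjusted p = 0.0564). Reads may be split between these rows, so the WT calls of Col15a1, also between CMS and FBS, may depend on that split.

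The steepest falls were outside the main fibrils. Col7a1, the anchoring fibril collagen, had 0.625, 0.689 and 0.597 FPKM in WT CMS and 0.770, 0.743 and 0.582 in WT FBS, against 6.14, 6.03 and 6.49 in WT SSt. That was 9.92-fold lower under CMS (log2 -3.31 ± 0.106, adjusted p = 2.6e-09, edgeR) and 9.11-fold lower under FBS (log2 -3.19 ± 0.105, adjusted p = 3.23e-09, edgeR). Col8a1, the chain of a hexagonal network best known from the cornea and vessel wall, was the most abundant of these, at 44.2, 45.8 and 43.1 FPKM in WT CMS and 58.4, 58.9 and 54.6 in WT FBS, against 178, 169.8 and 173 in WT SSt. It was 3.98-fold lower under CMS (log2 -1.99 ± 0.038, adjusted p = 1.16e-10, edgeR) and 3.11-fold lower under FBS (log2 -1.63 ± 0.037, adjusted p = 3.45e-10, edgeR). Its partner Col8a2 did not fall. Its log2 fold change was 0.06 ± 0.039 under CMS (adjusted p = 0.195, edgeR), and it rose by 0.19 ± 0.039 under FBS (adjusted p = 0.00176, edgeR). The transmembrane chain Col23a1 had 14, 13 and 18 counts in WT CMS and 42, 8 and 7 in WT FBS, against 110, 103 and 164 in WT SSt. Its log2 fold change was -2.89 ± 0.606 under CMS (adjusted p = 0.00185, edgeR) and -2.59 ± 0.593 under FBS (adjusted p = 0.00321, edgeR). Col23a1 reached 1 FPKM only in WT SSt, at 1.41, 1.17 and 1.85, and so entered the tests through that group alone. A fall from WT SSt was thus favoured by the filter, and these p-values cannot be read as support for it. Col7a1 also reached 1 FPKM in WT only in WT SSt. Col17a1, of the hemidesmosome of epithelia, rose by 0.68 under CMS and by 0.87 under FBS on the log2 scale, at levels near 1 FPKM.

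Between CMS and FBS in WT cells the collagen differences were small, and those that passed were lower under CMS. Of 24 genes, 10 were lower in WT CMS than in WT FBS and 0 higher, against 5.03% lower and 3.91% higher among all genes. The smallest adjusted p values belonged to Col8a1 (log2 -0.36 ± 0.037, adjusted p = 0.000647, edgeR), Col12a1 (-0.51 ± 0.053, adjusted p = 0.000696), Col14a1 (-0.39 ± 0.052, adjusted p = 0.00254) and Col18a1 (-0.24 ± 0.033, adjusted p = 0.00279). The others were Col5a3, Col6a1, Col15a1, Col1a1, Col27a1 and Col6a2, with log2 fold changes between -0.15 and -0.34, and none of the 10 reached a fold of 2. DESeq2 gave 12 lower and 0 higher. Leaving out WT CMS replicate 2 or 3 or WT FBS replicate 1 left 7 of the 10, with Col6a2 lost each time.

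In KO cells, Col14a1 and Col18a1 rose and Col5a1, Col5a2, Col7a1, Col8a1, Col15a1 and Col27a1 fell under both treatments, while Col1a1, Col3a1, Col6a1 and Col6a2 did not pass. Under CMS, 3 of 23 collagen genes were higher and 10 lower than in KO SSt, against 30.8% higher and 30.7% lower among all 12888 genes tested. Under FBS, 3 were higher and 6 lower, against 30.3% and 29.5% of all genes. With a fold of at least 2 as well, 7 passed under CMS and 4 under FBS, where 19.2% and 17.1% of all genes did. Scaling by library size alone moved the median of all genes under CMS by -0.11, with 40.0% of all calls higher in place of 50.1%, and gave 2 collagen genes higher and 12 lower. The median log2 fold change of the 23 genes was -0.20 under CMS and -0.02 under FBS, beside 0.0 under CMS and 0.02 under FBS over all genes. The KO libraries spread more than the WT libraries, and the standard error for Col3a1 was 0.195 in KO and 0.034 in WT. Without KO CMS replicate 2, 8 collagen genes passed under CMS, 2 higher and 6 lower, and without KO FBS replicate 1, 13 passed under FBS, 5 higher and 8 lower. Under CMS, 15 passed without KO CMS replicate 1, where Col11a1, Col12a1 and Col16a1 were lower as well (log2 -0.59, -0.41 and -0.22, adjusted p = 0.0348, 0.00245 and 0.00402, edgeR) and Col4a1 was lost, and 15 passed without KO FBS replicate 1, where Col11a1 was lower and Col4a2 higher (log2 -0.47 and 0.30, adjusted p = 0.00201 and 0.000371, edgeR).

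Col1a1 had 2036, 1595 and 1533 FPKM in KO CMS and 1481, 1865 and 2297 in KO FBS, against 1694, 1774 and 1833 in KO SSt. The groups overlapped, and the log2 fold change was 0.07 ± 0.149 under CMS (adjusted p = 0.7, edgeR) and 0.15 ± 0.149 under FBS (adjusted p = 0.428, edgeR). Col3a1 had 1363, 1039 and 967 FPKM in KO CMS and 888, 1381 and 1612 in KO FBS, against 939.7, 1029 and 1059 in KO SSt. Its log2 fold change was 0.26 ± 0.195 under CMS (adjusted p = 0.27, edgeR) and 0.41 ± 0.195 under FBS (adjusted p = 0.0982, edgeR), or 0.61 under FBS without KO FBS replicate 1 (adjusted p = 0.00441, edgeR). Without KO FBS replicate 1, Col2a1 was higher as well under FBS (log2 0.83, adjusted p = 0.000929, edgeR) and Col4a1 and Col4a2 were lower (-0.14 and -0.15, adjusted p = 0.0378 and 0.0323).

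Col6a2 had 204, 186 and 171 FPKM in KO CMS and 162, 220.2 and 259.6 in KO FBS, against 214, 238 and 243 in KO SSt, with log2 fold changes of -0.20 ± 0.14 under CMS (adjusted p = 0.244, edgeR) and -0.06 ± 0.14 under FBS (adjusted p = 0.733, edgeR). Col6a1 averaged 159 ± 17.3 FPKM in KO CMS and 187 ± 47.0 in KO FBS, against 189 ± 17.3 in KO SSt (SD, n = 3 each), with -0.14 ± 0.16 under CMS (adjusted p = 0.485, edgeR) and 0.04 ± 0.16 under FBS (adjusted p = 0.828, edgeR). Every KO CMS library of Col6a2 lay below every KO SSt library, although the change did not pass, and the other groups overlapped with KO SSt for both chains. The row described as the alpha 3 chain of type VI was lower under CMS in KO (log2 -1.39 ± 0.265, adjusted p = 0.00163, edgeR) and missed the threshold under FBS (-0.59 ± 0.261, adjusted p = 0.0782).

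The type V chains Col5a1 and Col5a2 fell in KO cells. Col5a2 had 373, 336 and 329.9 FPKM in KO CMS and 302, 371 and 379 in KO FBS, against 500.3, 521 and 530.3 in KO SSt, and neither treated group overlapped with SSt. The log2 fold change was -0.47 ± 0.078 under CMS (adjusted p = 0.000703, edgeR) and -0.51 ± 0.078 under FBS (adjusted p = 0.000511, edgeR). Col5a1 fell to 92.8 ± 15.2 FPKM in KO CMS and 108 ± 27.4 in KO FBS, against 203 ± 7.91 in KO SSt (SD, n = 3 each), with log2 fold changes of -1.02 ± 0.169 under CMS (adjusted p = 0.000725, edgeR) and -0.86 ± 0.169 under FBS (adjusted p = 0.00208, edgeR). Col5a3 had a log2 fold change of 0.03 under CMS and rose by 0.48 under FBS (adjusted p = 0.00254, edgeR). For both Col5a1 and Col5a2 the treated KO levels were close to the WT levels, and KO SSt stood above all other groups.

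**Figure D3:**
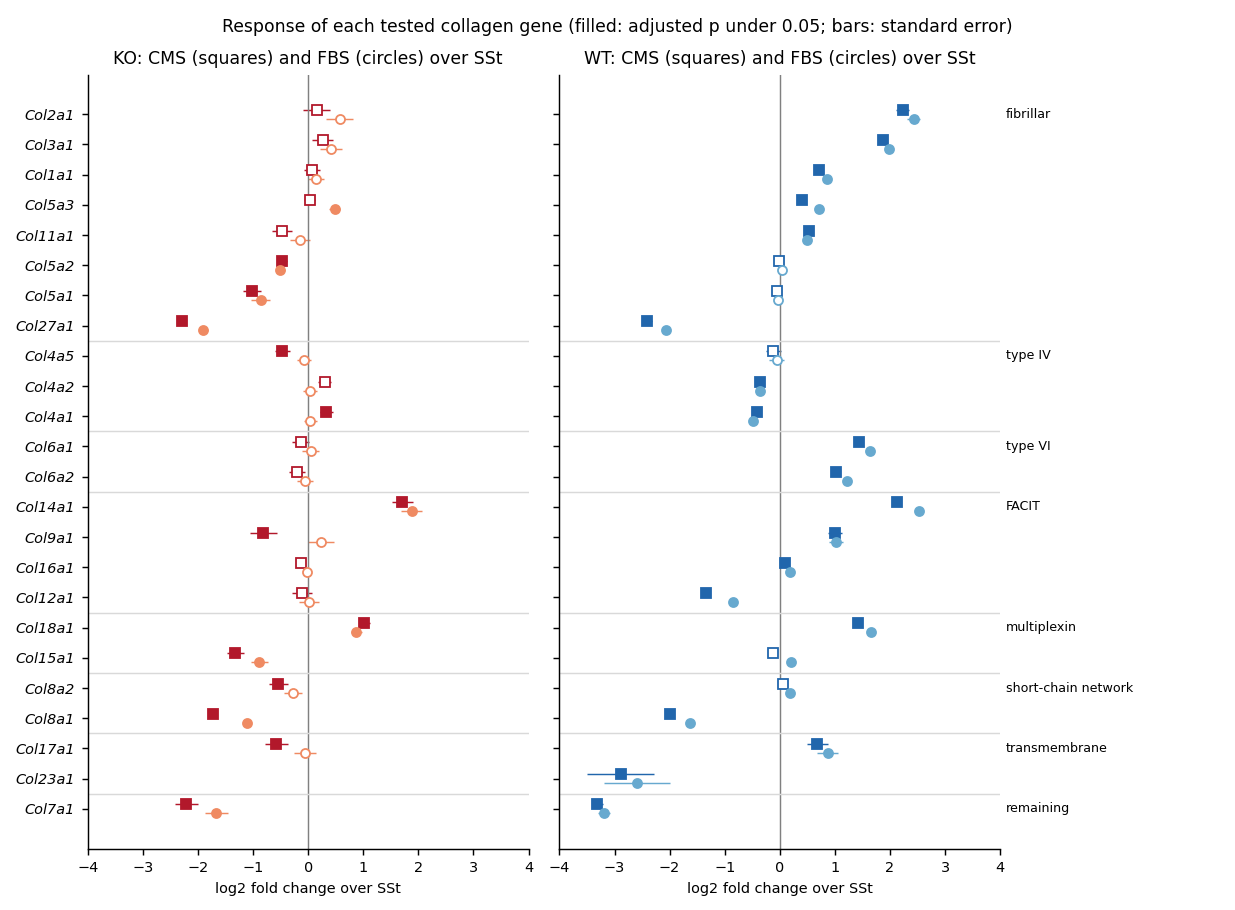
Log2 fold change over SSt (x axis) of the 24 tested collagen genes (y axis, by class), in KO on the left and WT on the right, for CMS (squares) and FBS (circles), with bars of 1 standard error and filled marks where adjusted p was under 0.05. Col14a1 and Col18a1 lie right of 0 and Col7a1, Col8a1 and Col27a1 left of 0 in both genotypes, while Col2a1, Col3a1, Col6a1 and Col6a2 are filled and right of 0 in WT and open in KO; Col23a1 was not tested in KO.

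The rise of Col14a1 and Col18a1 and the fall of Col7a1, Col8a1 and Col27a1 were seen in KO as well. Col14a1 had 87.3, 53.6 and 53.5 FPKM in KO CMS and 61.2, 78.7 and 86.3 in KO FBS, against 20.4, 20.9 and 22.8 in KO SSt, which was 3.27-fold higher under CMS (log2 1.71 ± 0.193, adjusted p = 6.96e-05, edgeR) and 3.67-fold higher under FBS (log2 1.88 ± 0.194, adjusted p = 4.97e-05, edgeR). Col18a1 had 19.8, 22.2 and 23.6 FPKM in KO CMS and 20.8, 18.6 and 22.1 in KO FBS, against 10.6, 11.9 and 12.4 in KO SSt, with a log2 fold change of 1.02 ± 0.096 under CMS (adjusted p = 2.27e-05, edgeR) and of 0.87 ± 0.096 under FBS (adjusted p = 6.82e-05, edgeR). Neither gene overlapped between treated and SSt libraries.

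Col27a1 had 1.62, 1.82 and 1.74 FPKM in KO CMS and 2.21, 2.26 and 2.56 in KO FBS, against 9.27, 9.24 and 8.81 in KO SSt, 4.88-fold lower under CMS (log2 -2.29 ± 0.075, adjusted p = 9.23e-08, edgeR) and 3.73-fold lower under FBS (log2 -1.90 ± 0.074, adjusted p = 3.1e-07, edgeR). Col7a1 had 0.969, 1.21 and 1.04 FPKM in KO CMS and 2.13, 1.29 and 1.42 in KO FBS, against 6.12, 5.14 and 4.82 in KO SSt, with log2 fold changes of -2.21 ± 0.209 under CMS (adjusted p = 2.31e-05, edgeR) and -1.67 ± 0.204 under FBS (adjusted p = 0.000136, edgeR). Col8a1 had 48.0, 48.9 and 46.1 FPKM in KO CMS and 78.6, 73.3 and 74.7 in KO FBS, against 186, 167 and 157 in KO SSt, with log2 fold changes of -1.72 ± 0.074 under CMS (adjusted p = 2.84e-07, edgeR) and -1.11 ± 0.073 under FBS (adjusted p = 3.48e-06, edgeR). Treated and SSt libraries were apart for all 3 genes.

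Col15a1 fell to 11.3, 10.8 and 8.50 FPKM in KO CMS and 11.8, 14.5 and 16.6 in KO FBS, against 24.8, 25.1 and 32.7 in KO SSt, with log2 fold changes of -1.32 ± 0.153 under CMS (adjusted p = 8.35e-05, edgeR) and -0.89 ± 0.152 under FBS (adjusted p = 0.000968, edgeR). The second row described as a type XV-like chain (ENSRNOG00000039197) was lower by 1.15 under CMS and by 0.89 under FBS on the log2 scale in these KO comparisons. It did not follow Col15a1 in WT, and reads of near-identical genes may be split between the rows. The other KO calls were smaller. Under CMS, Col4a1 was higher (log2 0.33, adjusted p = 0.043, edgeR), and Col4a5, Col8a2, Col17a1 and Col9a1 were lower, by 0.47 to 0.81, none of them with a fold of 2. These 5 calls were lost in 1 to 6 of the fits that left out a library, Col4a1 most often, at adjusted p of 0.0507 to 0.115 (edgeR), and all 5 were lost without KO CMS replicate 2.

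**Figure D4:**
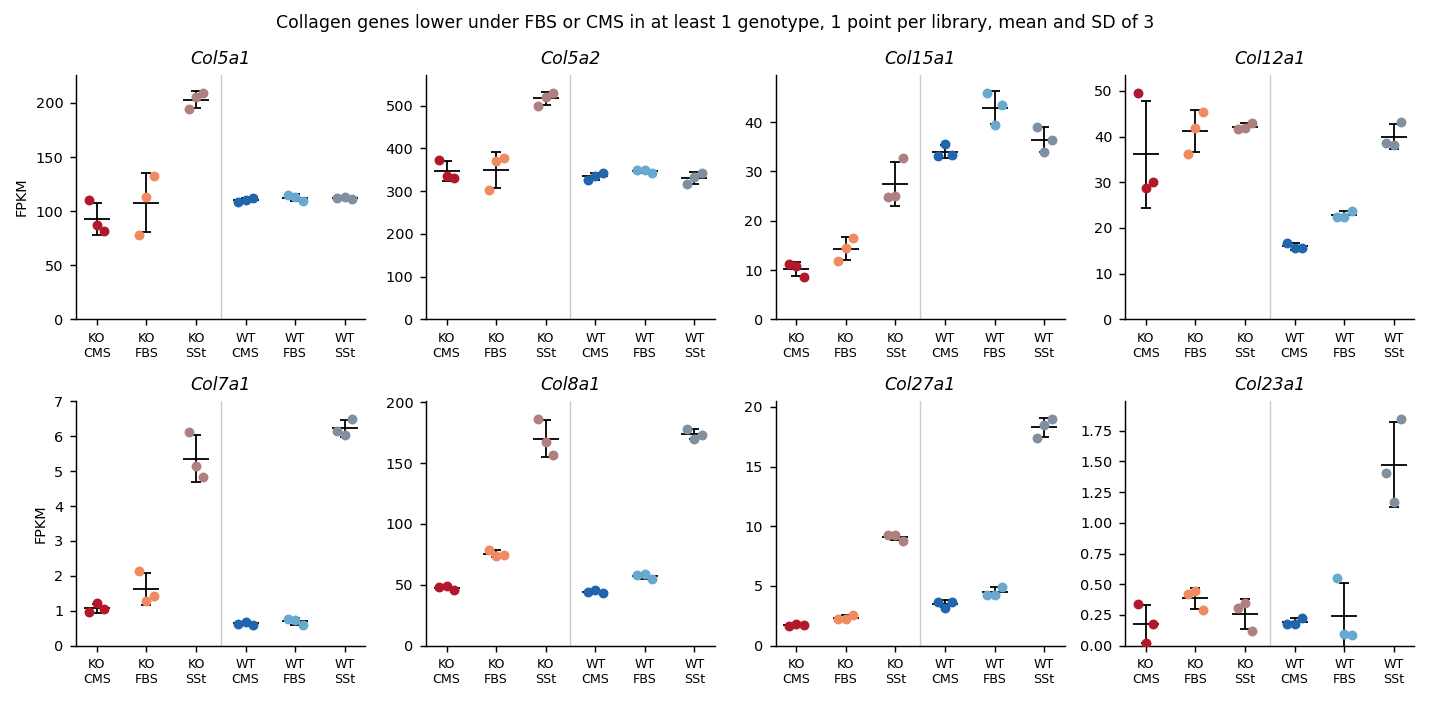
FPKM (y axis, linear from 0) of 8 collagen genes in the 6 groups (x axis), with 1 point per library and the mean and SD of 3 libraries in black. Col7a1, Col8a1 and Col27a1 are high in SSt of both genotypes, Col5a1 and Col5a2 only in KO SSt among the groups shown, and Col23a1 only in WT SSt.

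Between CMS and FBS in KO cells, 4 of 23 genes were lower under CMS and 0 higher, against 8.09% lower and 6.73% higher among all genes. They were Col8a1 (log2 -0.61 ± 0.072, adjusted p = 0.00145, edgeR), Col27a1 (-0.39 ± 0.073, adjusted p = 0.0106), Col5a3 (-0.45 ± 0.098, adjusted p = 0.0175) and Col9a1 (-1.04 ± 0.24, adjusted p = 0.0224). Under library size alone 31.0% of the calls over all genes were higher, in place of 45.4%, and the collagen counts stayed at 0 and 4. The count depended on single libraries. It was 12 without KO FBS replicate 1, where Col4a1 and Col4a2 were higher and Col2a1, Col4a5, Col6a1, Col8a2, Col11a1 and Col15a1 lower too, 7 without KO CMS replicate 1, where Col12a1, Col16a1 and Col17a1 were lower too, and 2 without KO CMS replicate 2 or 3, and DESeq2 gave 7. Col9a1 was lost without KO CMS replicate 2 or 3 or KO FBS replicate 2 or 3, at adjusted p up to 0.0876 (edgeR), and Col5a3 without KO CMS replicate 2 or 3.

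The difference between the KO and WT responses was tested directly in a fit of all 18 libraries. For CMS, the response of 15 of 24 collagen genes was lower in KO than in WT and that of 6 was higher, against 23.4% lower and 21.8% higher among all 13194 genes tested. For FBS, 13 were lower and 6 higher, against 17.4% lower and 18.7% higher. These differences share libraries with the comparisons within each genotype. The median difference over the 24 genes was -0.44 for CMS and -0.58 for FBS on the log2 scale, beside -0.05 for CMS and -0.01 for FBS over all genes. Scaling by library size alone moved the median of all genes by -0.14 for CMS and by -0.11 for FBS, so that 31.4% and 35.3% of all calls were higher, in place of 48.2% and 51.8%. The collagen counts under that scaling were 16 lower and 4 higher for CMS and 16 lower and 5 higher for FBS, and no collagen gene that passed under both scalings changed direction.

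The smallest adjusted p values were those of type VI. Relative to WT, the KO response of Col6a1 differed by -1.57 ± 0.179 for CMS (adjusted p = 6.88e-06, edgeR) and by -1.58 ± 0.179 for FBS (adjusted p = 1.49e-05, edgeR) on the log2 scale. That of Col6a2 differed by -1.22 ± 0.159 for CMS (adjusted p = 2.11e-05, edgeR) and by -1.27 ± 0.159 for FBS (adjusted p = 3.15e-05, edgeR). The type VI alpha 3 row, outside the name rule, differed by -2.9 ± 0.307 for CMS (adjusted p = 3.84e-06, edgeR). For FBS it differed by -2.24 ± 0.305 (adjusted p = 6e-05, edgeR). Col3a1 differed by -1.61 ± 0.213 for CMS (adjusted p = 2.48e-05, edgeR) and -1.56 ± 0.213 for FBS (adjusted p = 6.31e-05, edgeR). Col2a1 had the largest difference among the fibrillar genes for CMS, -2.07 ± 0.297 (adjusted p = 5.09e-05, edgeR), and Col18a1 differed by -0.77 ± 0.105 for FBS (adjusted p = 6.42e-05, edgeR). The response of Col7a1 was higher in KO, where it fell less, by 1.11 for CMS and 1.53 for FBS. No difference passed for Col27a1 (0.12 ± 0.106 for CMS and 0.18 ± 0.105 for FBS), for Col4a5 or, for CMS, for Col14a1 (-0.42 ± 0.211, adjusted p = 0.124, edgeR). Without KO CMS replicate 1, the difference of Col14a1 for CMS was -0.68 (adjusted p = 0.00074, edgeR). Without the same library, the responses of Col8a2 and Col16a1 to FBS were lower in KO as well (-0.45 and -0.18, adjusted p = 0.0405 and 0.00544, edgeR). Col12a1, which fell in WT, also had a higher response in KO, by 1.24 for CMS and 0.88 for FBS. The difference of the low Col23a1 was 2.49 for CMS and 3.24 for FBS, and the call for CMS was lost in 14 of the 18 fits that left out 1 library, at adjusted p of 0.0518 to 0.18 (edgeR). Col23a1 entered this fit through WT SSt alone, which favoured such a difference.

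The genotypes also differed without CMS or FBS. In SSt, 14 of 24 collagen genes were higher in KO than in WT and 7 lower, against 24.4% higher and 23.5% lower among all genes, with a median log2 fold change of 0.56 over the 24 genes and 0.02 over all genes. Under library size alone the split of calls over all genes moved to 62.6% higher, in place of 51.0%, and the collagen counts stayed at 14 and 7. Col1a1 had 1694, 1774 and 1833 FPKM in KO SSt against 782, 774 and 789 in WT SSt, 2.15-fold higher, Col3a1 was 2.55-fold higher, Col6a1 2.58-fold, Col6a2 2.26-fold, Col11a1 2.60-fold and Col2a1 6.95-fold. Without KO FBS replicate 1, Col7a1 was lower in KO SSt (log2 -0.29, adjusted p = 0.0395, edgeR). The type VI alpha 3 row was higher by 2.15 ± 0.222 on the log2 scale (adjusted p = 1.97e-06, edgeR).

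The 4 smallest adjusted p values in SSt were all of genes lower in KO. Col4a1 had 115, 106 and 107 FPKM in KO SSt against 316, 314 and 345 in WT SSt, 3.13-fold lower (log2 -1.65 ± 0.099, adjusted p = 9.27e-09, edgeR). Col4a2 had 79.1, 72.6 and 73.3 FPKM in KO SSt against 207, 206 and 228 in WT SSt (log2 -1.58 ± 0.096, adjusted p = 1.02e-08, edgeR). Col18a1 differed by -1.19 ± 0.075 (adjusted p = 1.67e-08, edgeR) and Col27a1 by -1.08 ± 0.074 (adjusted p = 3.37e-08, edgeR). Of the macrophage and blood markers, 8 of 13 tested were lower and 3 higher in KO SSt, against 23.5% and 24.4% of all genes. Within WT, the sum of these markers was higher under CMS and FBS than in SSt. So was Col18a1, while Col4a1, Col4a2 and Col27a1 were lower. The part of those cells in the collagen values was not tested.

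With CMS, 9 collagen genes were higher and 8 lower in KO than in WT, against 18.8% and 21.3% of all genes, and with FBS 9 were higher and 6 lower, against 13.7% and 12.4%. The median over the 24 genes was -0.06 with CMS and 0.01 with FBS. Under library size alone the collagen counts were 7 and 8 with CMS and 9 and 6 with FBS, where calls over all genes were 33.2% higher with CMS, in place of 46.9%. Col18a1 had the smallest adjusted p in both, with 19.8, 22.2 and 23.6 FPKM in KO CMS against 69.5, 68.6 and 66.9 in WT CMS (log2 -1.58 ± 0.076, adjusted p = 1.98e-09, edgeR) and 20.8, 18.6 and 22.1 FPKM in KO FBS against 84.5, 79.5 and 80.1 in WT FBS (log2 -1.95 ± 0.077, adjusted p = 2.48e-10, edgeR). Col15a1 differed by -1.67 ± 0.129 with CMS (adjusted p = 1.95e-07, edgeR) and by -1.56 ± 0.128 with FBS (adjusted p = 6.04e-07, edgeR), and Col27a1 by -0.96 ± 0.076 with CMS (adjusted p = 2.53e-07, edgeR) and by -0.91 ± 0.076 with FBS (adjusted p = 7.14e-07, edgeR). Col5a3 differed by -1.13 ± 0.084 with CMS (adjusted p = 1.26e-07, edgeR), Col4a2 by -1.19 ± 0.095 with FBS (adjusted p = 4.75e-07, edgeR), and its partner Col4a1 by -1.11 with FBS. Col4a5 went against its class, 1.86-fold higher in KO CMS, 2.36-fold in KO FBS and 2.37-fold in KO SSt than in the matching WT group. Col3a1, Col6a1, Col6a2, Col5a1 and Col5a2 did not pass between KO and WT under CMS or FBS, with log2 fold changes of -0.26 to 0.11. The type VI alpha 3 row, outside the name rule, was lower in KO with CMS (log2 -0.75 ± 0.214, adjusted p = 0.0116, edgeR). With FBS it did not pass (-0.09 ± 0.213, adjusted p = 0.81, edgeR). Without KO FBS replicate 1, Col3a1 and Col6a1 were lower and Col5a2 higher in KO CMS than in WT CMS (adjusted p of 0.031 to 0.0474, edgeR). Without KO CMS replicate 1, Col3a1 was also lower there (log2 -0.41, adjusted p = 0.044, edgeR), and the higher calls of Col8a1, Col8a2 and Col11a1 were lost (adjusted p of 0.0527 to 0.168). Without KO FBS replicate 1, Col9a1 was higher in KO FBS than in WT FBS (log2 0.60, adjusted p = 0.0181, edgeR), and Col6a1 was lower in KO FBS than in WT FBS without KO FBS replicate 3 (log2 -0.37, adjusted p = 0.0335, edgeR).

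Ratios of chains within a library do not depend on its depth. Col4a1 to Col4a2, the partners transcribed from the shared stretch printed above, kept a ratio of 1.47 to 1.52 in KO CMS, 1.43 to 1.49 in KO FBS and 1.45 to 1.46 in KO SSt, against 1.45 to 1.5 in WT CMS, 1.38 to 1.41 in WT FBS and 1.52 to 1.53 in WT SSt, although both levels in KO SSt were about a factor of 3 below those in WT SSt. Col3a1 to Col1a1, which belong to different trimers, moved more, with 0.631 to 0.67 in KO CMS, 0.6 to 0.74 in KO FBS and 0.555 to 0.58 in KO SSt, against 1.04 to 1.12 in WT CMS, 1.02 to 1.06 in WT FBS and 0.458 to 0.501 in WT SSt. Col8a1 to Col8a2 was 2.11 to 4.55 in every CMS or FBS library of either genotype, against 5.03 to 6.25 in KO SSt and 12.2 to 12.8 in WT SSt. Col5a1 to Col5a2 was 0.388 to 0.395 in KO SSt and 0.246 to 0.355 in all other libraries. These ratios are values with no test.

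**Figure D5:**
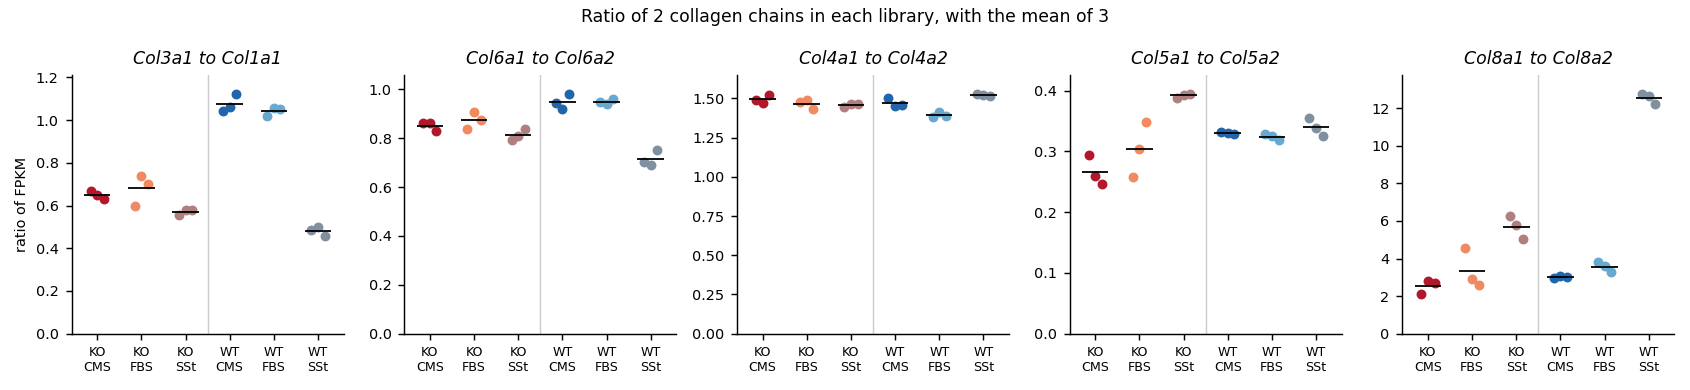
Ratio of the FPKM of 2 chains (y axis, linear from 0) in each of the 18 libraries by group (x axis), with the mean of 3 as a line. Col4a1 to Col4a2 stays within 1.38 to 1.53 in all libraries, Col3a1 to Col1a1 is above 1 only in WT CMS and WT FBS among the 6 groups, and Col8a1 to Col8a2 is highest in WT SSt.

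The partner of Col1a1, the alpha 2 chain of type I, has no row under the name rule. Its description is on 2 rows that share the same gene name, and their counts could not be told apart with certainty. The first row (ENSRNOG00000011292) held 111541 to 261712 counts per library. The second row (ENSRNOG00000052925) held 152098 counts in KO CMS replicate 1, 54128 in KO SSt replicate 1 and 22536 in WT CMS replicate 2, and at most 6421 in the other 15 libraries, of which 5 held none. The first row was higher by 0.75 ± 0.058 in WT CMS (adjusted p = 1.66e-06, edgeR) and by 0.82 ± 0.058 in WT FBS (adjusted p = 8.28e-07, edgeR) than in WT SSt on the log2 scale. In KO it differed by -0.25 ± 0.131 under CMS (adjusted p = 0.126, edgeR) and by -0.18 ± 0.131 under FBS (adjusted p = 0.27, edgeR). With both rows summed, the KO values were 0.01 ± 0.243 under CMS and -0.29 ± 0.243 under FBS, so the sign under CMS depends on the second row. The ratio of Col1a1 to the sum ran from 1.65 to 2.69 over the libraries.

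Some collagens under the level for a test were found in part of the groups. Col13a1, a transmembrane collagen, had 37 to 64 counts per library in KO SSt and 43 to 100 in WT SSt, and no count in any of the 12 libraries with CMS or FBS. Col25a1, also transmembrane, had 0 to 11 counts in KO libraries and none in WT CMS or WT FBS, against 17 to 36 in WT SSt. Col4a4, a partner of Col4a5 in the glomerulus, had 56 to 119 counts in KO CMS and 72 to 124 in KO FBS, against 8 to 35 in KO SSt, and 122 to 150 in WT CMS and 196 to 321 in WT FBS, against 22 to 33 in WT SSt. Treated and SSt libraries of Col4a4 did not overlap in either genotype. These genes were chosen after their values were seen and were not tested in the main fits. The alternative with no filter included them, and its results for them are not given here. Counting error alone leaves room for up to 3 counts where none was seen.

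The genes that modify, fold, cross-link, cleave and bind collagens were counted list by list, and no difference between a list and the collagens was tested. Over all genes tested, 30.8% rose and 30.7% fell under CMS in KO, 30.3% rose and 29.5% fell under FBS in KO, 34.6% rose and 32.3% fell under CMS in WT, and 33.7% rose and 32.7% fell under FBS in WT. Of 16 tested hydroxylases, glycosyltransferases and chaperones, 3 rose and 9 fell under CMS in KO and 1 rose and 10 fell under FBS, and in WT 3 rose and 10 fell under CMS and 4 rose and 10 fell under FBS. Plod2, the lysyl hydroxylase of the helix ends, fell to 64.8 FPKM in KO CMS and 49.0 in KO FBS, against 186 in KO SSt, and to 40.2 in WT CMS and 34.3 in WT FBS, against 181 in WT SSt. P4hb, the shared subunit of the prolyl hydroxylases, and Sparc, a collagen-binding chaperone, were the most abundant, with group means of 756 to 1169 and 1393 to 2305 FPKM. Sparc rose in WT by 0.24 under CMS and by 0.35 under FBS on the log2 scale and passed in neither KO comparison. Fkbp14, a foldase, fell in all 4 comparisons, by 0.73 to 1.19.

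Of 5 tested cross-linking enzymes, 1, Loxl1, rose and 4 fell in KO under CMS and under FBS, where 30.7% and 29.5% of all genes fell, and 1 rose and 3 fell in WT, where 32.3% and 32.7% fell. Lox had 340 FPKM in KO CMS and 333 in KO FBS, against 522 in KO SSt, and 150.2 in WT CMS and 159 in WT FBS, against 389 in WT SSt. Loxl1 rose by 0.75 under CMS and by 0.96 under FBS in KO and by 1.06 under CMS and 1.26 under FBS in WT on the log2 scale. Loxl4 fell by 1.05 under CMS and 0.77 under FBS in KO and by 2.30 under CMS and 1.74 under FBS in WT. Of 7 tested genes of secretion and propeptide removal, 3 rose and 3 fell in KO under CMS and under FBS, and 3 rose and 4 fell in WT. Pcolce, the enhancer of the C-propeptide protease, had group means of 253 to 440 FPKM and rose in all 4 comparisons, and its relative Pcolce2 fell by 2.57 to 2.91. Tll1, a C-propeptide protease, fell by 1.22 under CMS and 1.57 under FBS in KO and by 3.62 under CMS and 3.30 under FBS in WT.

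Collagen-cleaving proteases differed in direction between genotypes for Mmp9 and Mmp13. Of 6 tested proteases, 5 rose under CMS and 6 under FBS in KO and 0 fell, while in WT 3 rose and 3 fell under CMS and 3 rose and 2 fell under FBS. Of all genes, 30.8% rose under CMS and 30.3% under FBS in KO, and 34.6% and 33.7% in WT. Mmp13, the main collagenase of rats, had 167 FPKM in KO CMS and 142 in KO FBS, against 13.9 in KO SSt, and 59.2 in WT CMS and 87.3 in WT FBS, against 662 in WT SSt. The difference of its responses was 7.21 for CMS and 6.40 for FBS on the log2 scale, and both passed. Mmp9, a gelatinase that macrophages also make, had 214.8 and 191 FPKM in KO CMS and KO FBS, against 29.2 in KO SSt, and 51.3 and 71.7 FPKM in WT CMS and WT FBS, against 308 in WT SSt. Mmp2 and Mmp14 were abundant throughout, with group means of 808 to 1462 and 254 to 497 FPKM. Of 6 tested receptors, 1 rose and 3 fell in KO under CMS and under FBS, while in WT 1 rose and 4 fell under CMS and 2 rose and 4 fell under FBS. Itga2, the integrin chain that binds type I collagen, fell to 7.25 FPKM in KO CMS and 5.86 in KO FBS, against 23.8 in KO SSt, and to 2.40 in WT CMS and 2.57 in WT FBS, against 24.1 in WT SSt. Itga11 rose in WT by 1.24 under CMS and 1.25 under FBS on the log2 scale and passed in neither KO comparison.

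Of the regulators of collagen transcription and mRNA, 4 of 11 tested rose and 5 fell under CMS in KO and 3 rose and 4 fell under FBS, and in WT 6 of 12 rose and 4 fell under each, where 30.3% to 34.6% of all genes rose and 29.5% to 32.7% fell. Ccn2, a matricellular target of TGF-beta and of YAP-TEAD, had 73.4 FPKM in KO CMS and 156 in KO FBS, against 276 in KO SSt, and 208 in WT CMS and 231 in WT FBS, against 103 in WT SSt. The difference between its KO and WT responses was -2.78 for CMS and -1.89 for FBS on the log2 scale, and both passed. Tgfb1 was the other most abundant member, at 129 to 151 FPKM in the group means, and Smad7, the inhibitory SMAD, fell by 2.11 to 2.45 in all 4 comparisons. Sox9, which drives Col2a1 and Col9a1 in cartilage, was near or under 1 FPKM in every group.

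In WT, the summed cartilage markers rose with the low Col2a1 and Col9a1 under CMS and FBS, but Acan went the other way. In KO the sum fell, and most of the KO SSt sum was Acan, which fell. Col2a1 passed in neither KO comparison and Col9a1 was lower under CMS alone. Of the 9 markers, Matn1, Matn3 and Cnmd were at or near 0, and the aggrecan gene Acan was highest in KO SSt, with group means of 0.908 FPKM in KO CMS and 1.57 in KO FBS, against 14.2 in KO SSt, and 0.73 in WT CMS and 0.789 in WT FBS, against 2.23 in WT SSt. The summed markers were at 6.13 to 6.61 FPKM in KO CMS, 7.01 to 9.43 in KO FBS and 16.7 to 20.6 in KO SSt, against 9.88 to 11.1 in WT CMS, 10.8 to 11.4 in WT FBS and 5.88 to 6.39 in WT SSt. In WT, 3 of the 4 tested rose and 1 fell under CMS and under FBS. Of all genes, 34.6% rose and 32.3% fell under CMS and 33.7% and 32.7% under FBS. In KO, 2 of the 4 tested rose and 2 fell under CMS, and 2 rose and 1 fell under FBS. Over all genes in KO, 30.8% rose and 30.7% fell under CMS and 30.3% and 29.5% under FBS. The KO response was lower than the WT response for 4 of 5 and higher for 0 with either treatment. Over all genes it was lower for 23.4% and higher for 21.8% with CMS, and for 17.4% and 18.7% with FBS. In KO SSt 3 of 5 markers were higher and 1 lower than in WT SSt, against 24.4% and 23.5% of all genes. The part of cartilage-type cells in the values of Col2a1 and Col9a1 was not tested.

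Among the remaining marker lists, those of smooth muscle and osteoblasts had the highest sums. Summed over each list and over all 18 libraries, endothelial markers were at 9.5 to 25.8 FPKM, most of it Tie1, tendon markers at 2.3 to 7.42 and epithelial markers at 0.35 to 2.02. Emcn and Krt5 held no value above 0 in any group. Smooth muscle markers summed to 81.8 to 87.9 FPKM in KO CMS, 112 to 144 in KO FBS and 495 to 574 in KO SSt, against 74.9 to 93.9 in WT CMS, 98.2 to 109 in WT FBS and 264 to 294 in WT SSt, and most of this was Tagln. Their sum was highest in KO SSt, as were Col5a1 and Col5a2, and their part in the collagen values was not tested. The osteoblast sum of 1421 to 2828 FPKM was nearly all Spp1, which macrophages also make, while the mature osteoblast genes Bglap, Dmp1 and Ibsp stayed under 1 FPKM in every group. Of the 10 tested MSC and stroma markers, 3 rose and 4 fell under CMS and 4 rose and 4 fell under FBS in KO, and 3 rose and 6 fell under CMS and 4 rose and 6 fell under FBS in WT. Of the 13 tested macrophage and blood markers, 6 rose and 6 fell under CMS and 8 rose and 3 fell under FBS in KO, and 5 rose and 5 fell under CMS and 6 rose and 2 fell under FBS in WT. Over all genes in these comparisons, 30.3% to 34.6% rose and 29.5% to 32.7% fell.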

How the data were processed

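RNA-seq of 18 libraries was deposited as 2 tables, KO and WT, each with read counts and FPKM per gene and library. The authors counted reads per gene and scaled the deposited counts by transcript length and library total to give the deposited FPKM, in which a count of 0 is listed as 0.0001. Gene identifiers are rat Ensembl, although mm10, a mouse build, appears in the submitters' processing notes together with Bowtie 0.12.2. The rat build is not given in the sources used here, so coordinates come only from the RefSeq sequence tables (GRCr8). Reads of similar genes may be split between rows.

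Groups followed the sample labels. Genes with FPKM of 1 or more in 3 libraries entered edgeR 4.0.16 (TMM, quasi-likelihood test, Benjamini-Hochberg adjustment), with 12916 genes in the WT fit, 12888 in the KO fit and 13194 in the fit of all 18 libraries, which gave KO over WT and KO minus WT. There were 11 comparisons. Full statistics were given, in comparisons with SSt, for the 6 most abundant tested members and the 6 with the largest absolute change among those that passed, elsewhere for the 4 with the smallest adjusted p, and for partner chains. Of each other list the 2 most abundant and 2 most changed were named, and further names were chosen after their values were seen. Alternatives were library size alone, DESeq2 1.42.0, limma 3.58.1 on log2(FPKM + 1) and log2(FPKM + 0.1), a filter at FPKM 5 or none, a fold of 2, only the groups compared, leaving out each library, a replicate block, and, chosen after seeing the data, the Col1a2 rows summed. The fits were tested on simulated data. Tables and figures were made with matplotlib 3.10.9, pandas 2.3.3, numpy 2.4.6 and Python 3.11.15, and fits with R 4.3.3. The members and gene lists were chosen with earlier results of these data known. Kitl, Pecam1, Crtap, Mia3 and Col21a1 were not analysed here.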

Additional observations from a re-analysis of the deposited data

Results flagged for a closer look

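The response to a treatment differed between KO and WT for 21 collagen genes with CMS and 19 with FBS, by the interaction term of the edgeR fit over 18 libraries (adjusted p under 0.05, KO minus WT, log2 scale). No test for a single outlying value was run on these genes, since each group has 3 libraries.

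Among fibrillar genes with CMS the difference was -2.07 for Col2a1, -1.61 for Col3a1, -0.98 for Col11a1, -0.96 for Col5a1, -0.64 for Col1a1, -0.46 for Col5a2 and -0.38 for Col5a3. With FBS it was -1.84 for Col2a1, -1.56 for Col3a1, -0.81 for Col5a1, -0.71 for Col1a1, -0.62 for Col11a1 and -0.53 for Col5a2. The FBS call of Col11a1 was lost without KO SSt replicate 3, WT FBS replicate 1 or WT SSt replicate 1 (adjusted p up to 0.0575, edgeR).

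Type VI differed by -1.57 (Col6a1) and -1.22 (Col6a2) with CMS and by -1.58 (Col6a1) and -1.27 (Col6a2) with FBS. Type IV differed in the other direction, by 0.75 (Col4a1) and 0.67 (Col4a2) with CMS and by 0.53 (Col4a1) and 0.4 (Col4a2) with FBS. The FBS call of Col4a2 was lost without KO SSt replicate 2 or 3, WT FBS replicate 2 or 3 or WT SSt replicate 3 (adjusted p up to 0.0735, edgeR).

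Among FACIT genes with CMS the difference was -1.81 for Col9a1, -0.22 for Col16a1 and 1.24 for Col12a1, and with FBS it was -0.78 for Col9a1, -0.63 for Col14a1 and 0.88 for Col12a1. The CMS call of Col16a1 was lost in 13 of the 18 fits that left out 1 library (adjusted p of 0.0503 to 0.111, edgeR), and the FBS call of Col9a1 in 9 of them (0.0502 to 0.0871). The FBS call of Col14a1 was lost without KO FBS replicate 1, KO SSt replicate 3, WT FBS replicate 1 or WT SSt replicate 1 or 2 (adjusted p up to 0.0724, edgeR).

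Of the remaining classes, the difference with CMS was -1.26 for Col17a1, -1.19 for Col15a1, -0.6 for Col8a2, -0.39 for Col18a1, 0.27 for Col8a1, 1.11 for Col7a1 and 2.49 for Col23a1. With FBS it was -1.07 for Col15a1, -0.92 for Col17a1, -0.77 for Col18a1, 0.54 for Col8a1, 1.53 for Col7a1 and 3.24 for Col23a1. The FBS call of Col17a1 was lost without KO SSt replicate 3 or WT FBS replicate 3 (adjusted p of 0.0501 and 0.0547, edgeR). Col23a1 rests on at most 164 counts per library and entered the fit through WT SSt alone.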

How the results depend on the processing

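With a fold of at least 2 the counts of collagen genes fell to 12 for WT CMS over WT SSt, 11 for WT FBS over WT SSt, 0 for WT CMS over WT FBS, 7 for KO CMS over KO SSt, 4 for KO FBS over KO SSt, 1 for KO CMS over KO FBS, 10 and 7 for KO minus WT with CMS and with FBS, and 4 and 6 for KO over WT with CMS and with FBS. KO CMS over KO FBS was 7 with DESeq2 and 1 with only the groups compared. Leaving out 1 library at a time gave 18 to 19 for WT CMS over WT SSt, 20 to 21 for WT FBS over WT SSt, 7 to 10 for WT CMS over WT FBS, 8 to 15 for KO CMS over KO SSt, 9 to 13 for KO FBS over KO SSt, 2 to 12 for KO CMS over KO FBS, 19 to 21 and 15 to 21 for KO minus WT with CMS and with FBS, and 13 to 20, 14 to 16 and 19 to 22 for KO over WT with CMS, with FBS and in SSt.

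The reversed fold changes were all near 0 and none had passed. Col5a2 in WT CMS over WT SSt was 0.017 with limma at both pseudocounts and with library size alone, 0.011 with FPKM of at least 5, and -0.046 to 0.011 without 1 library, and in WT FBS over WT SSt -0.002 to 0.055. In KO CMS over KO SSt, Col1a1 was -0.049 with limma at both pseudocounts, -0.04 with library size alone and -0.06 to 0.143 without 1 library. In KO FBS over KO SSt, Col6a1 was -0.038 with limma at pseudocount 1, -0.039 at 0.1, -0.006 with library size alone and -0.107 to 0.218 without 1 library, where Col1a1 ran from -0.013 to 0.276 and Col6a2 from -0.214 to 0.09. The causes were not tested. Over all alternatives, 1520 values of single genes kept direction and call, 31 lost the call, 2 gained it and 18 reversed. Of the 31, 21 were lost only because a fold of at least 2 was asked for, with the adjusted p unchanged.

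With the replicate number as a block (replicate block), the counts were 3 for KO CMS over KO FBS, 13 for KO CMS over KO SSt, 9 for KO FBS over KO SSt, 20 and 16 for KO minus WT with CMS and with FBS, and 10, 19 and 21 for the WT comparisons of CMS over FBS, CMS over SSt and FBS over SSt. Among the genes given with full statistics it changed 1 call, Col9a1 in KO CMS over KO FBS (-1.04, adjusted p = 0.0638, edgeR), and no other. Deviations of each library from its group mean, on a log scale, were also correlated between libraries of different treatments within a genotype. These correlations of deviations, not of the expression values themselves, were -0.137 to 0.146 for libraries with the same number. For libraries with different numbers they were -0.205 to 0.252. With 3 libraries in each group, these values cannot show whether samples with the same number share a rat, a culture or a run.

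Precision was lower in KO, where the standard error of Col3a1 was 0.195, against 0.034 in WT, and genes under 1 FPKM rest on few counts.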
